A study of Mus musculus with 11 samples.

Results

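The genes described here are 36 genes of autophagy and lysosome biogenesis, out of 18193 genes that the arrays measured with a probe set of 1 gene symbol. They were chosen by name for their role in the pathway, by a rule that uses no measured difference, but with earlier results of these data known. They cover the autophagy machinery from its starting kinase to the Atg8 proteins, a pair of transcription factors of lysosomal genes, and proteins of the lysosomal membrane and lumen. Total RNA of mouse back skin keratinocytes was measured on single-channel Affymetrix arrays, 5 of the fraction that carries the surface protein CD34 (CD34+) and 6 of the fraction without it (CD34-). An antibody against CD34 on magnetic beads parted them, and in mouse skin this protein marks the bulge, the stem cell niche of the hair follicle. Every mouse was of the K5-myrAkt(L84) line, which carries a constitutively active, myristoylated Akt behind the keratin 5 promoter, so that both fractions come from transgenic skin in which the basal layer and its appendages express the transgene. No array of non-transgenic skin was analysed here, so the data compare fractions within 1 genotype and say nothing of the effect of Akt itself. The labels give no age, sex, hair cycle stage, batch or number of mice. The cell type label names follicle stem cells for the CD34- arrays too, whereas the design text calls them CD34- cells. Whether the arrays of a fraction stand for separate mice is not said, and p-values therefore describe only the spread between these samples, which may be technical.

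Autophagy wraps cytoplasm in a double membrane, the autophagosome, and delivers it to the lysosome, where acid hydrolases digest it. The ULK kinase complex starts the process, the class III phosphatidylinositol 3-kinase complex marks the membrane with a lipid that WIPI proteins read, and a pair of ubiquitin-like conjugation systems couples LC3 and GABARAP proteins to the growing membrane. Akt acts through mTORC1, a kinase that restrains ULK1 and keeps the transcription factors TFEB, TFE3 and MITF out of the nucleus. These factors bind the letters CACGTG in the promoters of many lysosomal genes.

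Promoter sequences are shown for members and pathway genes whose signal differed between the fractions (Ctsd, Atg5, Atp6v1a and Gnptab lower, Gm2a, Hexa and Lamtor1 higher) and for lysosomal genes with several copies of the motif (Mcoln1 and Lamp1). Each run is the 140 bases before the start of the gene, 5′ to 3′ on the strand of the gene, from RefSeq on GRCm38.p6, and capitals mark CACGTG. The windows are chr7:142387828-142387967 (minus strand) for Ctsd, chr10:44268199-44268338 (plus) for Atg5, chr16:44139260-44139399 (minus) for Atp6v1a, chr8:3500379-3500518 (plus) for Mcoln1, chr8:13159021-13159160 (plus) for Lamp1, chr9:59539400-59539539 (plus) for Hexa, chr11:55097845-55097984 (plus) for Gm2a, chr10:88379128-88379267 (plus) for Gnptab and chr7:101905697-101905836 (plus) for Lamtor1.
Ctsd: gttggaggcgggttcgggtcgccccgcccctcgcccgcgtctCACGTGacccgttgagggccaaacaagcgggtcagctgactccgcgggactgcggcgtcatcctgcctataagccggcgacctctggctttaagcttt
Atg5: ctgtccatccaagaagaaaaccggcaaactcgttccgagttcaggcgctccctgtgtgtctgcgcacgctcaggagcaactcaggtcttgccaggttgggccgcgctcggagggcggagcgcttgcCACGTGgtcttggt
Atp6v1a: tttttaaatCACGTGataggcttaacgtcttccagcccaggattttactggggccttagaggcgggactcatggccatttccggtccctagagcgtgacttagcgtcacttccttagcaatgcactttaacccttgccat
Mcoln1: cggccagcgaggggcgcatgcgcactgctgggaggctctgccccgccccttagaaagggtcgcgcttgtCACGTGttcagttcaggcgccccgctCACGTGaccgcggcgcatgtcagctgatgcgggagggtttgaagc
Lamp1: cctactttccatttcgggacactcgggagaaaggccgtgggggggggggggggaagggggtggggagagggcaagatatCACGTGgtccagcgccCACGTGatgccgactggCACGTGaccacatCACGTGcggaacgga
Hexa: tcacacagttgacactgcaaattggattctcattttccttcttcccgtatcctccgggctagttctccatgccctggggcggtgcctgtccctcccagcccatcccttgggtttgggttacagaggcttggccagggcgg
Gm2a: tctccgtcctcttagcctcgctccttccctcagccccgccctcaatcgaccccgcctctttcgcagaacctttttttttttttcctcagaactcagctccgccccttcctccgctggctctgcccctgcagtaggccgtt
Gnptab: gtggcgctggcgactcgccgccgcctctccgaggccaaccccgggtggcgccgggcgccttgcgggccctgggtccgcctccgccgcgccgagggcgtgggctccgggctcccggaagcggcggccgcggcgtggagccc
Lamtor1: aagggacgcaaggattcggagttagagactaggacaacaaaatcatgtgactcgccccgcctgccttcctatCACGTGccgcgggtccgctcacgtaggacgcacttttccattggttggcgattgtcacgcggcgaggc

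The letters were searched over the 250 bases before each start, on both strands, which for this palindrome gives the same matches. Of all 32851 promoters in the RefSeq table, 6.02% held CACGTG and 0.785% held the longer TCACGTGA, every copy of which contains a CACGTG. Of the 36 members, 29 matched the table, with 33 promoters, of which 9 (27.3%) held CACGTG and 5 (15.2%) held TCACGTGA. The members without an entry were Pik3c3, Becn1, Atg12, Atg16l1, Map1lc3a, Npc1 and Ctsb. Ctsd had the motif at -245 and -98, counted from the start, the second as TCACGTGA. Atg5 had 1 copy at -14, Atp6v1a 1 copy at -131 within a TCACGTGA, Mcoln1 copies at -71 and -45, and Lamp1 copies at -61, -45, -28 and -15. No copy of these letters lay in the 250 bases before Hexa, Gm2a or Gnptab, and Lamtor1 had 1 at -68. Among called genes of the members and the wider lists that matched the table, 4 of 10 lower ones held the motif (Atg5, Atp6v1a, Bnip3 and Ctsd) and 2 of 14 higher ones (Gaa and Lamtor1), and no test was made of this. The presence of the letters is a description of the promoter and not evidence of a bound factor.

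The fractions differed widely over the whole array, so every count of members is read against that background. A gene was called when limma gave a Benjamini-Hochberg adjusted p under 0.05 over the 10916 genes that passed the brightness filter, and 24.7% of them were called, 12.4% higher and 12.3% lower in CD34+. Cd34 itself was 7.63 higher in CD34+ on the log2 scale (limma adjusted p = 1.21e-05), and all 11 bulge markers of the list used were called higher, Nfatc1 by 1.02 and Krt15 by 0.47. Of 7 basal keratinocyte markers 2 were called lower and none higher, with Krt5 at -0.07 and Col17a1 at -0.13, neither called. Suprabasal markers were mixed, with 3 of 11 called higher, including Krt10 at 0.36 and Sbsn at 0.60, and 3 called lower. Differences of the suprabasal markers ran from -1.22 for Casp14 to 1.18 for Flg, both named after their values were seen. Some of the marker calls were lost when any of several arrays was left out by itself. Krt15 was not called without any of CD34+ arrays 1 to 3 or any CD34- array (0.32 to 0.52). Krt10 was not called without CD34+ arrays 2 or 3 or CD34- arrays 1, 2, 4, 5 or 6 (0.29 to 0.38), nor Sbsn without CD34+ arrays 2 or 3 or CD34- arrays 2, 4, 5 or 6 (0.55 to 0.60). With equal medians Krt15 stood at -0.01 and Krt10 at -0.12. Sebaceous markers gave no call among 5 tested, with Scd1 at -0.24 and Elovl3 at -0.24. The fractions also differed in markers of cells other than keratinocytes. Of 12 macrophage and dendritic cell markers tested, 6 were called higher in CD34+ and none lower, H2-Aa by 0.95 and Csf1r by 1.20 (0.99 and not called without CD34+ array 5), and all 3 fibroblast markers tested were called higher, Col1a2 by 3.49 and Dcn by 1.53. All 5 T cell markers tested were called lower, Thy1 at -1.20 and Cd3g at -2.69. Melanocyte markers gave no call among 6, with Dct at -0.50 and Tyrp1 at -0.87, and no endothelial marker (Kdr, Tek) or mast cell marker (Tpsb2, Cma1) passed the filter. The counts of called markers include genes that passed the brightness filter (limit 6.59) only through the fraction where they are high. For example, CD34- arrays stood at 2.76 to 5.96 for the bulge marker Fgf18 and 2.00 to 5.50 for Cd34. CD34+ arrays stood at 4.06 to 6.55 for the T cell marker Cd7. The part of these cells in the members' differences was not tested. The actin probe sets of the array measure how far the labelled RNA reaches from its 3′ end. The difference of the 3′ probe set over the 5′ one averaged 3.95 log2 units in CD34+ (SD 0.99, n = 5) and 2.43 in CD34- (SD 0.19, n = 6), and the fractions did not overlap (2.91 or more against 2.76 or less). The same difference for the Gapdh probe sets averaged 3.32 in CD34+ (SD 0.34, n = 5) and 3.16 in CD34- (SD 0.18, n = 6). For Gapdh the fractions overlapped (2.96 to 3.69 against 3.00 to 3.43). In bulk RNA of this kind, fewer cells of a type and less RNA per cell cannot be told apart.

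On the deposited scale few autophagy and lysosome genes were called different between the fractions. All 36 members passed the brightness filter, 1 (Hexa) was called higher in CD34+, 3 (Pik3c3, Atg5 and Ctsd) were called lower, and 32 were not called. The 4 called members are 11.1% of the list, against 24.7% of all genes tested. Their median difference, CD34+ minus CD34-, was -0.10 on the log2 scale, beside -0.00 over all genes tested, with 23 members below 0 and 13 above. The arrays of the fractions did not overlap for 4 members, Gla with CD34+ above (7.64% of all genes tested) and Pik3c3, Atg5 and Ctsd with CD34+ below (7.37% of all genes tested). For 28 of the 32 members not called, the 95% interval of the difference lay inside a 2-fold change in either direction, and the exceptions were Wipi1, Npc1, Ctsz and Gla. The intervals of 7 members lay on 1 side of 0 without a call, those of Wipi2, Atg3, Gabarap, Gabarapl2 and Mcoln1 below it and those of Lamp2 and Gla above it. Deposited values have a common trimmed mean but not a common median, and setting the medians equal lowered every difference, moving the median of all genes to -0.48 and that of the members to -0.58. Under that scaling 24 members were called lower and none higher, beside 5212 genes lower and 396 higher over the whole array. These calls made up 66.7% of members, against 51.4% of all genes called and 47.7% called lower. The share of members called thus exceeded that of all genes with equal medians and fell short of it on the deposited scale.

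**Figure D1:**
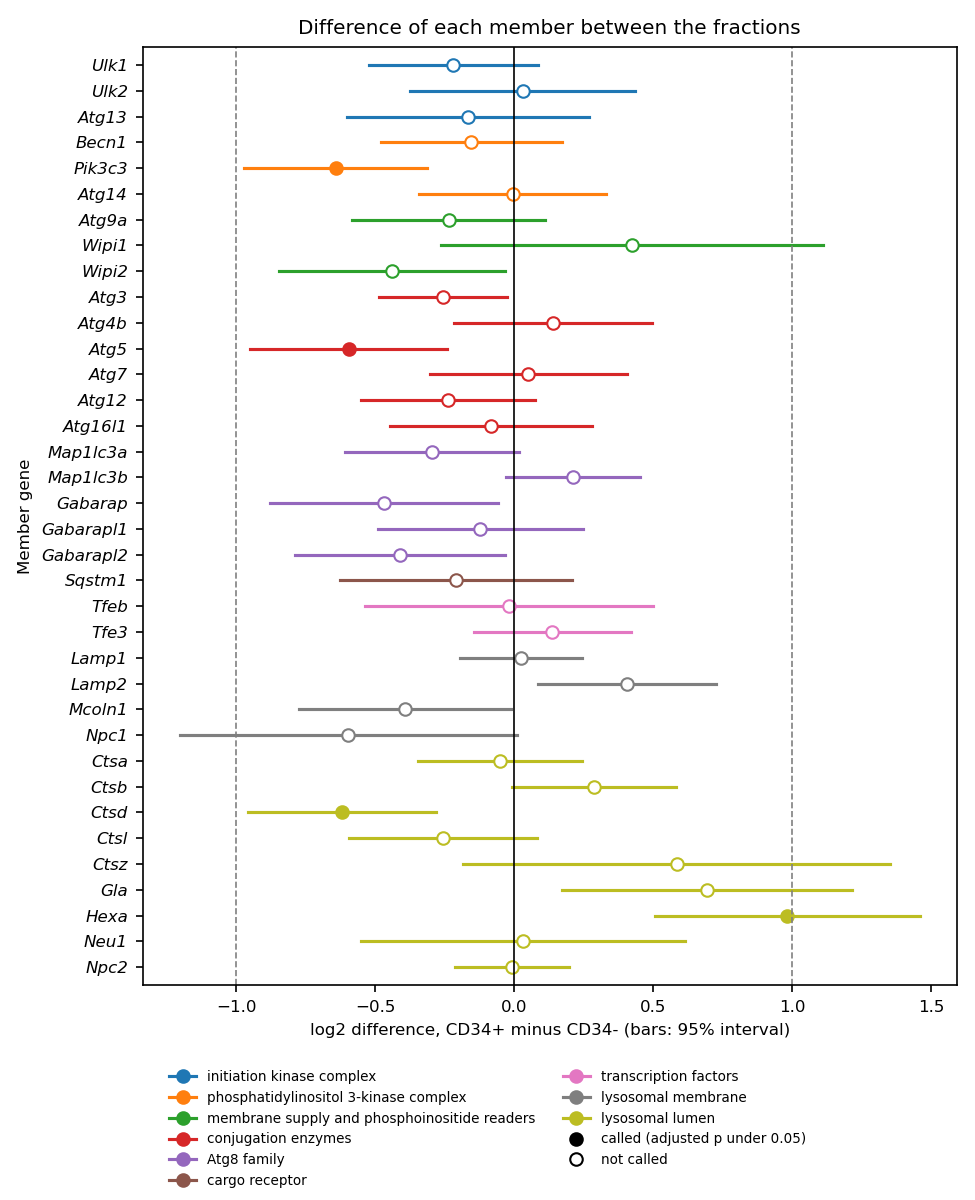
Difference between the fractions for each of the 36 members, CD34+ minus CD34- in log2 units (x axis), with its 95% interval from limma as a bar, coloured by role in the pathway. Filled points are the 4 called members, 3 of them between -0.64 and -0.59 and Hexa at 0.98, and dashed lines stand at a 2-fold difference.

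The initiation kinase complex gave no call. Ulk1, the kinase that starts autophagy, differed by -0.22 (95% interval -0.52 to 0.08), its relative Ulk2 by 0.03 (-0.37 to 0.43) and the regulatory subunit Atg13 by -0.17 (-0.60 to 0.27). On the deposited scale the intervals of all 3 genes exclude a 2-fold change. With equal medians Ulk1 and Atg13 were called lower. Another probe set of Ulk2, with a lower mean signal, stood at 1.45 (limma adjusted p = 0.0189), but its CD34- mean of 5.82 was below the limit of 6.06 for probe sets, so that it was tested only through its CD34+ signal.

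The catalytic subunit of the class III phosphatidylinositol 3-kinase, Pik3c3 (VPS34), fell in CD34+ cells. Its log2 signal was 8.77, 8.58, 9.19, 9.23 and 9.39 on CD34+ arrays 1 to 5, and between 9.58 and 9.75 on the 6 CD34- arrays, with a median of 9.68. Every CD34+ array lay below every CD34- array, with arrays 1 and 2 lowest, and the CD34- arrays spanned a narrow range. The difference was -0.64 (SE 0.154, 95% interval -0.97 to -0.31, limma adjusted p = 0.00969), a signal 1.56-fold lower. CD34+ arrays 1 and 2 also had the highest actin 3′ to 5′ differences, 5.25 and 4.56, and without them the difference was -0.40 and still called (limma adjusted p = 0.0355). With the actin difference as a covariate it was -0.23 (limma adjusted p = 0.666). That fit called 126 of 10916 genes and none of the 36 members. The actin difference did not overlap between the fractions, so this fit cannot tell RNA length from fraction. The part of RNA length in the members' differences was not tested. The other subunits stayed uncalled, Becn1 (Beclin 1, the scaffold of the complex) at -0.15 (-0.48 to 0.17) and Atg14, the subunit that directs the complex to autophagosomes, at -0.01 (-0.34 to 0.33). Pik3c3 was measured by 1 probe set, and the dimmer probe sets of Becn1 stood at -0.09, 0.56, 0.65 and 1.61, none called, so that most lay on the side opposite to its main one.

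Members that supply membrane and read the lipid gave no call. Atg9a, the transmembrane protein of membrane-supplying vesicles, differed by -0.24 (-0.58 to 0.11). Wipi2, which recruits the conjugation machinery to the membrane, differed by -0.44 (-0.85 to -0.03, limma adjusted p = 0.103). Its CD34+ arrays lay at 9.69 to 9.78 except array 3 at 10.60, and the CD34- arrays at 9.95 to 10.67, so that array 3 alone overlapped. Without it the difference was -0.61 and called (limma adjusted p = 0.0149). Wipi1 differed by 0.42 (-0.26 to 1.11), and this rested on array 2, at 10.39 against 8.36 to 8.47 on its 4 companions. Leaving array 2 out gave a difference of 0.03, which was not called (limma adjusted p = 0.922). Dimmer Wipi1 probe sets that passed the filter stood at 0.51 and 0.20 and were not called (limma adjusted p = 0.0651 and 0.731).

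Among the conjugation enzymes Atg5 fell and the other 5 were not called. Atg5 is joined to Atg12 and, with Atg16l1, forms the complex that couples LC3 to lipid. Its log2 signal was 9.48, 8.52, 9.01, 9.41 and 9.20 on CD34+ arrays 1 to 5, and 9.63 to 9.89 on CD34- arrays, with a median of 9.70. The CD34+ arrays were all below the CD34- range, array 2 by the most. The difference was -0.59 (SE 0.166, 95% interval -0.95 to -0.24, limma adjusted p = 0.02), a signal 1.51-fold lower. Both other Atg5 probe sets that passed the filter disagreed with it, at 0.12 (limma adjusted p = 0.763) and -0.06 (limma adjusted p = 0.848). The mean over the probe sets was -0.18 and not called (limma adjusted p = 0.397), so the lower signal belongs to 1 of 3 probe sets of the gene. Its call was also lost without CD34- arrays 1 and 2, at -0.61 (limma adjusted p = 0.0575), and with the actin covariate, at -0.50 (limma adjusted p = 0.447). The partners of Atg5 stood at -0.24 (-0.55 to 0.07) for Atg12 and -0.08 (-0.45 to 0.28) for Atg16l1. Atg7, the activating enzyme of both conjugation systems, differed by 0.05 (-0.30 to 0.40), Atg3, which transfers LC3 to lipid, by -0.26 (-0.49 to -0.02, limma adjusted p = 0.096), and Atg4b, the protease that primes LC3, by 0.14 (-0.22 to 0.49).

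The Atg8 family, the proteins that are coupled to the autophagosome membrane, gave no call on the probe sets used. Map1lc3a differed by -0.30 (-0.61 to 0.02), Map1lc3b by 0.21 (-0.03 to 0.45) and Gabarapl1 by -0.12 (-0.49 to 0.25). Gabarap stood at -0.47 (-0.88 to -0.06, limma adjusted p = 0.087) and Gabarapl2 at -0.41 (-0.79 to -0.03, limma adjusted p = 0.101). Gabarap was 10.74 to 11.13 on CD34+ arrays 2 to 5 and 11.78 on array 1, and without array 1 the difference was -0.63 and called (limma adjusted p = 0.0128). The probe sets of the Atg8 genes did not move together. Map1lc3b had differences of 0.21, -0.29 and 0.35 over its 3 probe sets that passed, none called, and a dimmer probe set of Gabarapl1 was called lower at -1.14 (limma adjusted p = 0.00267). Sqstm1 (p62), the cargo receptor that carries ubiquitin-tagged proteins into autophagosomes and is itself digested there, differed by -0.21 (-0.63 to 0.21).

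**Figure D2:**
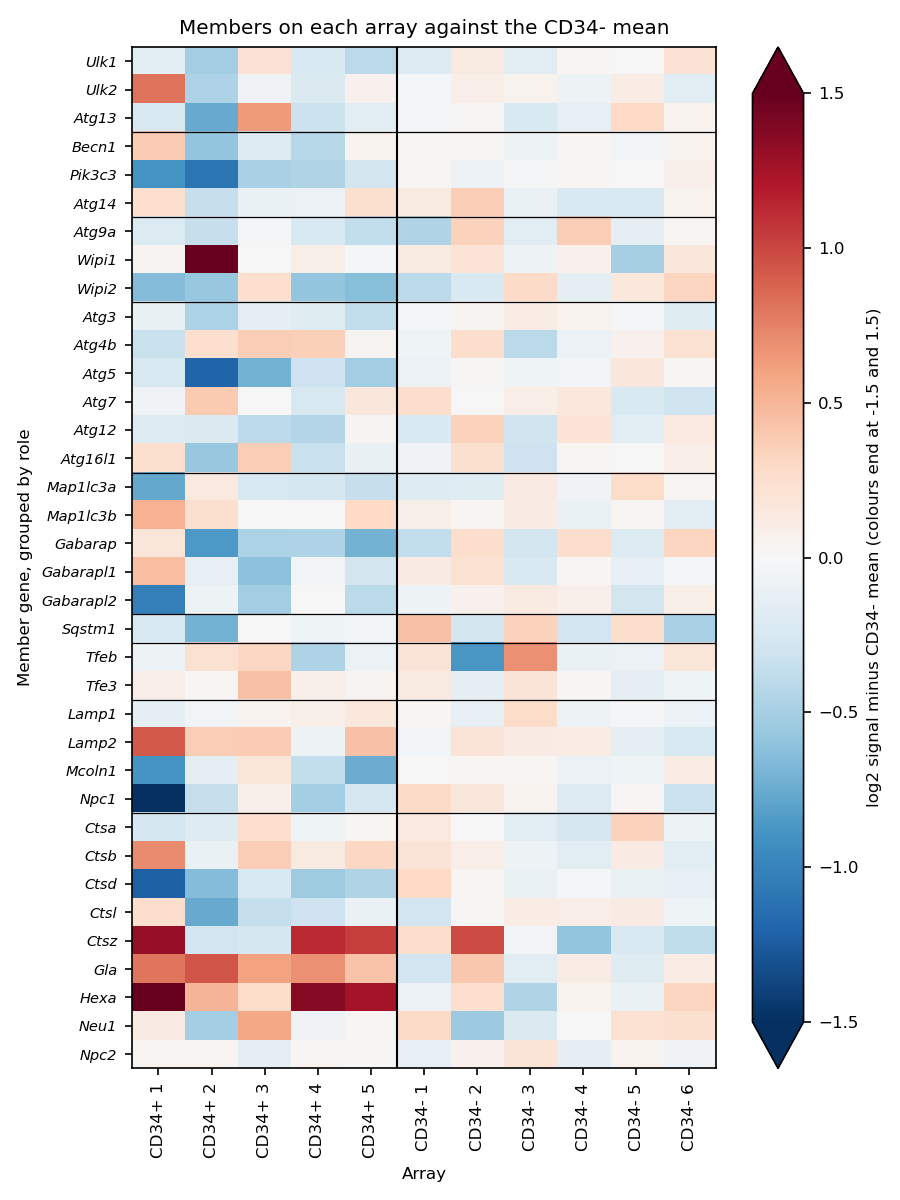
Log2 signal of the 36 members (rows, by role) on the 5 CD34+ and 6 CD34- arrays (columns), each minus the mean of the CD34- arrays for that gene, with the colour scale ending at -1.5 and 1.5. CD34+ columns vary more than CD34- columns, with a median SD of 0.347 against 0.18.

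Individual CD34+ arrays spread more than CD34- arrays for most members. The SD was larger on CD34+ arrays for 28 of 36 members, or 77.8%, beside 78.8% of all genes tested, so this was shared with the rest of the array. Median differences of the members from the CD34- mean were -0.06, -0.25, 0.00, -0.20 and -0.03 on CD34+ arrays 1 to 5. On array 2, 16 of the 36 members lay below the whole CD34- range and 6 above it, beside 32.6% and 31.4% of all genes. On array 1 there were 11 below and 11 above, beside 36.01% and 36.47% of all genes. Array 3 had 11 below and 9 above, beside 27.7% and 29.8%. Array 4 had 16 below and 4 above, beside 27.2% and 24.7%. Array 5 had 11 below and 7 above, beside 24.0% and 26.5%. No array shifted all members in 1 direction.

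Transcription factors of lysosomal genes among the members gave no call. Tfeb signal was 8.31, 8.62, 8.69, 7.92 and 8.29 on CD34+ arrays 1 to 5, and 7.52 to 9.07 on CD34- arrays, with a median of 8.43. The CD34+ arrays lay wholly within the CD34- range, and the difference was -0.02 (SE 0.243, 95% interval -0.54 to 0.50, limma adjusted p = 0.963). Tfe3 signal was 9.28, 9.20, 9.62, 9.26 and 9.22 on CD34+ arrays, and 9.03 to 9.38 on CD34- arrays, with a median of 9.16. Array 3 alone lay above the CD34- range, and the difference was 0.14 (SE 0.132, 95% interval -0.15 to 0.42, limma adjusted p = 0.471). These are transcript levels, and the activity of both factors is set largely by their place in the cell, which the arrays do not measure.

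Lysosomal membrane members gave no call, and their differences pointed both ways. Lamp1, an abundant glycoprotein of that membrane, differed by 0.02 (-0.20 to 0.24). Lamp2, its relative that is also a receptor of chaperone-mediated autophagy, stood at 0.40 (0.08 to 0.72, limma adjusted p = 0.062), with array 4 at 13.99 the lowest of the CD34+ arrays and 14.43 to 14.98 on the others, against 13.82 to 14.26 on CD34- arrays. Without array 4 the difference was 0.52 and called (limma adjusted p = 0.0161), though the other Lamp2 probe sets that passed stood between -0.23 and 0.07. Mcoln1, the calcium channel that signals to TFEB, stood at -0.39 (-0.77 to -0.01, limma adjusted p = 0.117), and without array 3 it was called at -0.53 (limma adjusted p = 0.0274). A dimmer Mcoln1 probe set was called lower at -0.82 (limma adjusted p = 0.012). Npc1, which exports cholesterol from the lysosome, stood at -0.60 (-1.20 to 0.01), resting on array 1 at 7.69 against 9.13 to 9.72 on the other CD34+ arrays. Without array 1 it was -0.26 and not called (limma adjusted p = 0.24). Its partner in the lumen, Npc2, differed by -0.01 (-0.21 to 0.20) on the probe set used. Dimmer Npc2 probe sets that passed stood at -0.31 and -0.31 and were not called (limma adjusted p = 0.0603 and 0.261).

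In the lysosomal lumen the aspartic protease cathepsin D fell. Ctsd signal was 10.84, 11.42, 11.83, 11.54 and 11.61 on CD34+ arrays 1 to 5, and 11.94 to 12.37 on CD34- arrays, with a median of 12.01. All CD34+ arrays lay below all CD34- arrays, array 1 furthest. The difference was -0.62 (SE 0.158, 95% interval -0.96 to -0.28, limma adjusted p = 0.0133), a signal 1.54-fold lower. Without CD34+ arrays 1 and 2 it was -0.41 and called (limma adjusted p = 0.0397), and the call was lost without CD34- arrays 1 and 2, at -0.54 (limma adjusted p = 0.0641), and with the actin covariate, at -0.23 (limma adjusted p = 0.701). CD34- arrays 1 and 2 stood apart in melanocyte markers, whose summed linear signal was 20922 and 23123 there against 3727 to 5499 on the other CD34- arrays and 4899 to 5880 on CD34+ arrays. The part of these cells in the difference was not tested.

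Hexa, the alpha subunit of the beta-hexosaminidase that digests GM2 ganglioside, rose in CD34+ cells. Its signal was 11.41, 10.42, 10.19, 11.28 and 11.15 on CD34+ arrays 1 to 5, and 9.46 to 10.23 on CD34- arrays, with a median of 9.89. Arrays 1, 4 and 5 stood well above the CD34- range, array 2 just above it and array 3 inside its upper end. The difference was 0.98 (SE 0.223, 95% interval 0.50 to 1.46, limma adjusted p = 0.0073), a signal 1.97-fold higher. It kept its sign at 0.50 but lost the call with equal medians (limma adjusted p = 0.0972). With the actin covariate it was 0.99 and not called (limma adjusted p = 0.238). The summed linear signal of the macrophage and dendritic markers was 6769, 9618, 9317, 15110 and 16433 on CD34+ arrays 1 to 5, and 4439 to 7386 on CD34- arrays. Of the markers on that list, Itgam was dim in both fractions and was not tested, whereas Csf1r was called higher. Without CD34+ arrays 4 and 5 Hexa was 0.76 higher and called (limma adjusted p = 0.0454). The part of these cells in the difference was not tested.

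The other enzymes and cathepsins of the lumen were not called. Gla, the alpha-galactosidase that digests globotriaosylceramide, was 7.08, 7.23, 6.89, 6.97 and 6.71 on CD34+ arrays and 6.00 to 6.68 on CD34- arrays. The fractions did not overlap, but the difference of 0.69 (SE 0.244, 95% interval 0.17 to 1.21) did not pass the threshold (limma adjusted p = 0.051). The CD34- mean of Gla, 6.29, was below the brightness limit of 6.59, so that the gene was tested only through its CD34+ signal. Ctsz, a cathepsin with carboxypeptidase activity, split the CD34+ arrays, with 8.55, 8.36 and 8.29 on arrays 1, 4 and 5 and 6.96 and 6.98 on arrays 2 and 3, against 6.65 to 8.22 on CD34- arrays. Its difference was 0.58 (-0.18 to 1.35), and the same arrays 1, 4 and 5 were high in Hexa. The cysteine proteases Ctsb and Ctsl stood at 0.29 (-0.01 to 0.58) and -0.25 (-0.59 to 0.08). Dimmer Ctsb probe sets that passed stood at -0.61 (limma adjusted p = 0.0654), 0.16, 0.02 and 0.47, none called. The protective protein Ctsa stood at -0.05 (-0.35 to 0.24) and the sialidase that it stabilises, Neu1, at 0.03 (-0.55 to 0.61). Neu1 was dim, with a mean of 6.67 just above the limit of 6.59. Its other probe sets, at 0.67 and 1.21, were too dim to be tested.

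**Figure D3:**
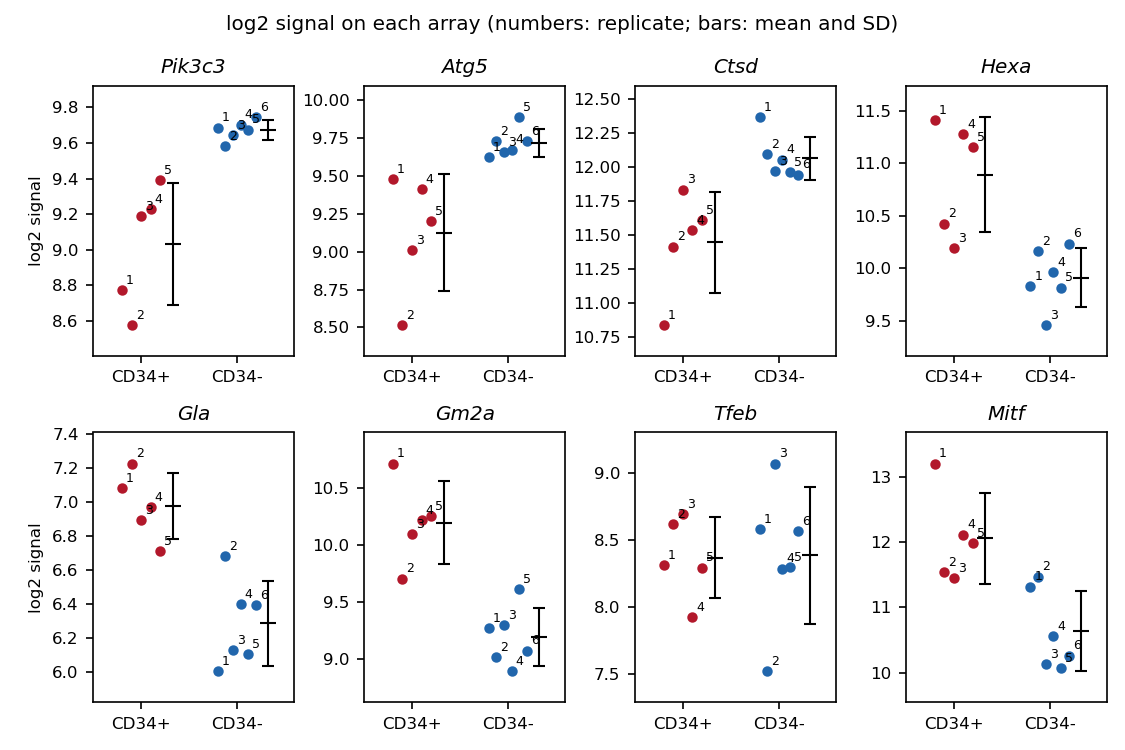
Log2 signal on each array (points, numbered by replicate) for the called members Pik3c3, Atg5, Ctsd and Hexa, for Gla and Tfeb, and for Gm2a and Mitf of the wider pathway, with bars at the mean ± SD of each fraction. CD34+ arrays lie below all CD34- arrays for Pik3c3, Atg5 and Ctsd and above them for Gla and Gm2a, and the fractions overlap for Hexa, Tfeb and Mitf.

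The 9 members with CACGTG in a promoter window were Atg3, Atg5, Atg7, Ctsa, Ctsd, Ctsl, Gla, Lamp1 and Mcoln1, with 2 called lower, none higher and a median difference of -0.25. The 20 matched members without it had 1 call, Hexa, and a median of -0.01. Over all genes tested 12.3% were called lower and 12.4% higher, and no test was made of this split. Of the lower calls with the motif, Atg5 had other probe sets at 0.12 and -0.06 that were not called. Pik3c3, also called lower, had no promoter entry and is in neither group. Lamp1, with 4 copies in the printed sequence, differed by 0.02, and Ctsd, with 1 copy in the printed stretch and another further out, by -0.62. The members with the motif thus held both called and uncalled genes and differences of either sign, from -0.62 to 0.69.

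The wider pathway was described with lists of genes that are not members. List medians are on the deposited scale, and with equal medians each would be lower by the shift given for all genes, so that those above 0 would turn. Of the 27 genes called in these lists, 18 had another probe set that passed the filter, and for 16 of these at least 1 such probe set was not called or was called the other way. With the actin difference as a covariate, Ctss (1.24, limma adjusted p = 0.0227) was the 1 gene among them that stayed called, and Atp6v1c1 stood at -0.72 (limma adjusted p = 0.0889) and Gm2a at 0.91 (limma adjusted p = 0.168). The V-ATPase, the proton pump that acidifies the lysosome, had 7 calls among 16 genes tested (43.8%), with 5 lower and 2 higher and a median of -0.24. Over all genes tested 24.7% were called, 12.3% lower and 12.4% higher. Atp6v1c1, a stalk subunit of its cytosolic V1 part, was 10.46 to 11.13 on CD34+ arrays and 11.66 to 12.11 on CD34- arrays, with no overlap. The difference was -1.04 (SE 0.136, limma adjusted p = 2.4e-04), whereas its other probe sets stood at -0.35 and -0.39 and were not called (limma adjusted p = 0.132 and 0.115). Atp6v1a, the catalytic V1 subunit whose promoter is shown with the sequences, was 11.11 to 11.87 on CD34+ arrays and 12.06 to 12.62 on CD34- arrays. It differed by -0.85 (SE 0.148, limma adjusted p = 0.0016), and its second probe set was called lower too, at -0.75 (limma adjusted p = 0.0118). Atp6v1d, the central shaft, stood at 0.38 (SE 0.105, limma adjusted p = 0.0205) and -0.10 with equal medians, and its other probe sets, at 0.25 and -0.08, were not called. Atp6v0e2 stood at 0.73 (SE 0.253, limma adjusted p = 0.0492) and was not called without any of CD34+ arrays 1, 4 or 5 or CD34- arrays 1, 2, 3, 4 or 6, at 0.57 to 0.78. Of the other lower calls, chosen after their values were seen, Atp6v1b2 (-0.68) and Atp6v1h (-0.69) each had another probe set called higher, that of Atp6v1b2 tested only through its CD34+ signal (CD34- mean 5.69). Atp6v1b2 was not called without CD34+ array 2 (-0.59) or CD34- array 6 (-0.63). The remaining lower call, Atp6ap1, also named after its value was seen, stood at -0.57 (limma adjusted p = 0.0115) and had 1 probe set.

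Other lysosomal enzymes and their cofactors had 9 calls among 35 tested, 6 higher and 3 lower, or 25.7%, close to the 24.7% of all genes, with a median of 0.16. Gm2a, the activator protein that presents GM2 ganglioside to the enzyme of which Hexa is a subunit, was 10.71, 9.70, 10.09, 10.22 and 10.25 on CD34+ arrays and 8.89 to 9.61 on CD34- arrays. No arrays overlapped, and it was 1.00 higher (SE 0.180, limma adjusted p = 0.00197). Galc, the galactosylceramidase, was 0.65 higher (SE 0.171, limma adjusted p = 0.0153). Psap, the precursor of the saposins that help hydrolases reach glycolipids, was 11.62 to 12.40 on CD34+ arrays and 12.36 to 13.23 on CD34- arrays, with CD34+ array 4 just above the lowest CD34- array. It differed by -0.99 (SE 0.185, limma adjusted p = 0.00256), and its second probe set was called at -0.81 (limma adjusted p = 0.0345). Acp5, the tartrate-resistant acid phosphatase, differed by -0.83 (SE 0.186, limma adjusted p = 0.00685). Ctss, a cathepsin of antigen-presenting cells named here after its value was seen, was called at 0.63 and stood at 0.28 without CD34+ arrays 4 and 5, the arrays with the highest macrophage signal. It was not called without any of CD34+ arrays 4 or 5 or CD34- arrays 1, 2, 3 or 5, at 0.48 to 0.64. The part of macrophages and dendritic cells in the Ctss difference was not tested.

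Among 17 other genes of the lysosomal membrane and of sorting, 1 was called in each direction, with a median of -0.14. That is 11.8% called, against 24.7% of all genes tested. Laptm4b, a small lysosomal membrane protein, stood at 0.31 (SE 0.097, limma adjusted p = 0.0339) but at -0.17 with equal medians, and was not called without any of CD34+ arrays 2, 4 or 5 or CD34- arrays 1, 2, 4, 5 or 6, at 0.28 to 0.33. Its other probe sets, at 0.28 and 0.04, were not called. Gnptab, the enzyme that puts the mannose 6-phosphate tag on lysosomal hydrolases, differed by -0.52 (SE 0.142, limma adjusted p = 0.0183), and a second probe set by -0.63 (limma adjusted p = 0.0235), while the third, at -0.43, was not called. Of 27 other autophagy genes 3 were called lower and none higher, or 11.1% against 12.3% of all genes called lower, with a median of -0.13. They were Bnip3, a mitophagy receptor, at -0.63 (SE 0.142, limma adjusted p = 0.00667), Vmp1, an endoplasmic reticulum protein needed for autophagosomes to form, at -0.48 (SE 0.134, limma adjusted p = 0.02) with a second probe set at 0.14 that was not called, and Rb1cc1, the FIP200 scaffold of the ULK complex, named after its value was seen, at -0.38. Rb1cc1 was not called without any of CD34+ arrays 1 or 2 or CD34- arrays 1, 3, 4, 5 or 6, at -0.40 to -0.28.

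Genes of autophagosome and lysosome fusion had 2 of 12 called (16.7%), both higher, against 12.4% of all genes called higher, with a median of -0.04. Stx17, the autophagosomal SNARE, stood at 0.54 (SE 0.136, limma adjusted p = 0.0131), and its other probe sets, at -0.32, 0.50 and -0.39, were not called. Vps8, a subunit of the endosomal CORVET tether, stood at 0.53 (SE 0.164, limma adjusted p = 0.0319) and was not called without any of CD34+ arrays 1 or 2 or CD34- arrays 1, 2, 3 or 4, at 0.40 to 0.54. Its second probe set stood at -0.23 and was not called (limma adjusted p = 0.545).

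Genes of nutrient sensing at the lysosome and relatives of Tfeb had 4 calls among 13 tested, 3 higher and 1 lower, with a median of 0.18. That is 30.8% called, against 24.7% of all genes tested. Mitf, the relative of Tfeb and Tfe3 that is known as the melanocyte regulator, was 13.21, 11.54, 11.45, 12.12 and 11.98 on CD34+ arrays and 10.07 to 11.47 on CD34- arrays, with a median of 10.41. CD34+ array 1 was highest, CD34+ array 3 lay just inside the top of the CD34- range, and the CD34- arrays with the highest Mitf were 1 and 2, which also had the melanocyte signal. The difference was 1.42 (SE 0.325, limma adjusted p = 0.00747), a signal 2.68-fold higher, and it was 1.80 without CD34- arrays 1 and 2 (limma adjusted p = 0.00308). None of 6 melanocyte markers was called. Their summed linear signal was 20922 and 23123 on CD34- arrays 1 and 2, against 3727 to 5499 on the other CD34- arrays. Such a spread weakens the test of these markers, and the part of melanocytes in the Mitf difference was not tested. The second Mitf probe set stood at 1.07 and was not called (limma adjusted p = 0.112). Lamtor1, a Ragulator subunit that anchors mTORC1 signalling at the lysosome, was 0.47 higher (SE 0.098, limma adjusted p = 0.00451) but stood at -0.01 with equal medians. Its other probe sets, at 0.29 and -0.22, were not called. Rraga, a Rag GTPase of the same platform, was 7.99, 9.22, 7.90, 9.82 and 9.70 on CD34+ arrays and 9.52 to 10.69 on CD34- arrays. Arrays 1 and 3 were low and arrays 4 and 5 overlapped the CD34- range. It differed by -1.22 (SE 0.354, limma adjusted p = 0.0243), and was not called without CD34+ array 3 or CD34- arrays 4 or 6, at -1.16 to -0.96. Slc38a9, the arginine sensor of the lysosomal membrane named after its value was seen, was called at 0.81 (limma adjusted p = 0.0196). Of its 5 other probe sets that passed, 1 was called higher, at 0.76, and the others stood at -0.20, -0.31, -0.29 and 0.56.

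**Figure D4:**
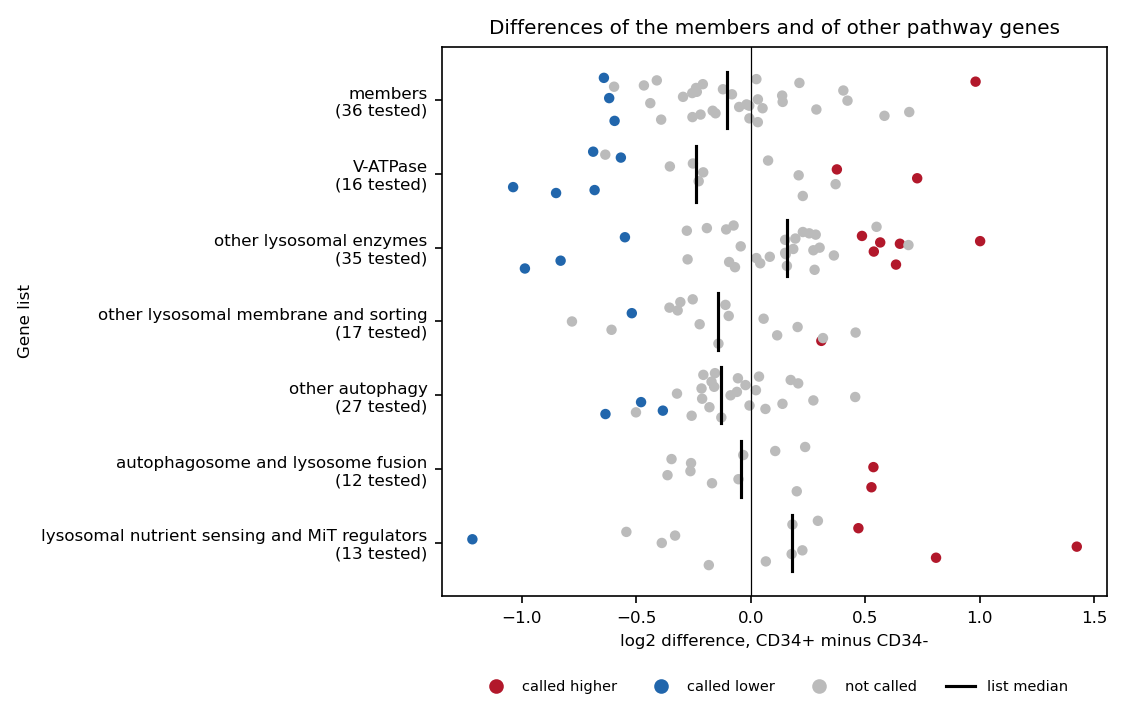
Log2 difference, CD34+ minus CD34- (x axis), of each tested gene of the members and of the 6 wider lists (rows), with red points called higher, blue points called lower, grey points not called and a black line at the median of the list. On the deposited scale medians lie between -0.24 for the V-ATPase and 0.18 for nutrient sensing genes, and the farthest points are Mitf at 1.42 and Rraga at -1.22.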

How the data were processed

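The authors deposited 1 log2 value per probe set and array. MAS5 made them, per the submitters' processing notes, and which version and settings it had is not given in the sources used here. That the scale is log2 follows from the trimmed mean of the linear signal (2% left off at each end), which was 500.002 to 500.004 on all 11 arrays, and no further normalization was applied. Of 45101 probe sets, 64 were controls, 34945 had 1 symbol in the platform annotation, 932 several and 9160 none. Of the probe sets of a gene with 1 symbol, the one with the highest mean over all arrays was used, and the dimmest 40% of 18193 genes were left out (lowest mean kept 6.59). Levels of different probe sets were not compared.

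Groups came from the sample titles, and the 5 CD34+ and 6 CD34- arrays were compared with limma 3.58.1 (R 4.3.3), empirical Bayes with an intensity trend and Benjamini-Hochberg adjustment over 10916 genes, called at an adjusted p under 0.05. Tests of other probe sets were adjusted over all probe sets of 1 symbol left after the dimmest 40% of them were removed. Precision is limited by the number of arrays, and the median standard error was 0.165 for members and 0.187 for all genes tested. Between arrays of 1 fraction the SD of log2 differences was 0.356 to 0.969, so none was a duplicate.

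The members, gene lists and tests were chosen with earlier results of these data known. Arrays were named for every called member and the transcription factors. From each wider list the 2 genes of smallest p in each direction were named if called, and from each marker list the 2 with the highest mean signal. Others are marked as named after their values were seen. Promoters came from RefSeq on GRCm38.p6. Scaling, filter, probe set choice, test, actin covariate, replicate block and left-out arrays were varied.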

Additional observations from a re-analysis of the deposited data

Results flagged for a closer look

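In 6 of the 72 groups tested (36 members in each fraction), 1 array stood farther from the others than Dixon's test allows at the 95% level. Chance alone would flag some groups at that level, about 1 in 20. Of the CD34+ arrays, array 2 was high for Wipi1, at 10.39 against 8.36 to 8.47 on the others. Array 3 was high for Wipi2, at 10.60 against 9.69 to 9.78, and for Tfe3, at 9.62 against 9.20 to 9.28, and low for Npc2, at 13.27 against 13.43 to 13.45. Array 1 was low for Npc1, at 7.69 against 9.13 to 9.72. Of the CD34- arrays, array 1 was high for Ctsd, at 12.37 against 11.94 to 12.10.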

How the results depend on the processing

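Of 964 member values under other settings, 854 kept direction and call, 67 turned sign (21 members, none of them among the 4 called), 10 lost a call and 36 gained one, 21 of these with equal medians. Of those that turned, 3 gained a call too, Atg7 and Lamp1 with equal medians and Map1lc3b with the mean of probe sets. Equal medians gave 5608 genes called, 0 members higher, 24 lower and a member median of -0.58, since it lowers every difference by about the same amount; it turned Ulk2 (-0.45), Wipi1 (-0.058), Atg4b (-0.34), Atg7 (-0.43), Map1lc3b (-0.27), Tfe3 (-0.34), Lamp1 (-0.46), Lamp2 (-0.076), Ctsb (-0.19), Neu1 (-0.45), Atp6v1d (-0.10), Laptm4b (-0.17), Lamtor1 (-0.010), Krt15 (-0.0058) and Krt10 (-0.12). For the other settings that moved a value the cause was not tested. The actin covariate called 126 genes, 0 members higher and 0 lower, and turned Ulk2 (-0.29), Wipi1 (-0.053), Sqstm1 (0.12), Npc1 (0.17), Ctsa (0.091), Krt15 (-0.044), Sbsn (-0.034), Scd1 (0.20), Elovl3 (0.075) and Cd3g (0.48). The mean over all probe sets of a gene, dim ones included, called 1756 genes, had a member median of -0.036 and turned Becn1 (0.51), Atg4b (-0.025), Atg16l1 (0.11), Map1lc3b (-0.64), Ctsa (0.25), Ctsl (0.17), Atp6v1b2 (0.21) and Atp6v1h (0.74). An adjusted p under 0.01 left 1004 genes and 1 member lower (Pik3c3). Leaving out CD34- arrays 1 and 2, chosen after seeing the data, left 1611 genes and 1 member lower, and turned Atg14 (0.12), Neu1 (-0.034), Dct (0.20) and Tyrp1 (0.036). Leaving out CD34+ arrays 1 and 2 gave a median of -0.050 and turned Ulk2 (-0.066), Atg13 (0.051), Atg14 (0.021), Atg7 (-0.027) and Ctsa (0.068); leaving out CD34+ arrays 4 and 5, also chosen after seeing the data, called 2 members higher and turned Atg16l1 (0.011), Tfeb (0.15), Lamp1 (-0.045) and Krt5 (0.11). Array weights called 6 members lower, with a median of -0.16, and turned Ulk2 (-0.069) and Atg14 (0.041). Quantile normalization gave a median of -0.14 and turned Atg7 (-0.092), Lamp1 (-0.027), Ctsa (0.015), Neu1 (-0.45), Krt15 (-0.026) and Krt10 (-0.12). Leaving out the dimmest 60% of genes gave a median of -0.19. The exact rank-sum test, log2(signal + 32), raising dim values to the 40th percentile and no intensity trend each called 2 members higher, the second being Gla.

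Leaving out 1 array at a time called 1865 to 2789 genes, 1 to 2 members higher and 3 to 5 lower, with a median of -0.16 to -0.040, and all 4 called members stayed called. It turned members not called, within ranges of -0.16 to 0.15 for Ulk2, -0.071 to 0.079 for Atg14, -0.033 to 0.12 for Atg7, -0.19 to 0.040 for Atg16l1, -0.26 to 0.0019 for Gabarapl1, -0.19 to 0.12 for Tfeb, -0.010 to 0.079 for Lamp1, -0.13 to 0.018 for Ctsa, -0.11 to 0.17 for Neu1 and -0.035 to 0.031 for Npc2, and of -0.39 to 0.012 for the sebaceous marker Scd1.

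The labels do not say whether same-numbered arrays of the fractions are paired. Their deviations correlated at 0.02 to 0.19, and 1 of 5 matched its own number best. These values cannot exclude pairing, since spread between arrays can hide it. With the replicate block 2034 genes and the same 4 members were called, with Atg5 at limma adjusted p = 0.0497, and Ulk2 (-0.0022), Atg14 (0.0046), Atg7 (-0.0080) and Tfeb (0.017) turned.

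Dim genes are limited by background, and no detection calls were used here.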
